A study of Mus musculus with 6 samples.

Results

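Muscle progenitors sense the matrix around them through receptors for collagen and laminin, and 9 genes for such receptors are described here in mdx myoblasts treated with PSB-KD107 or with vehicle. They are the discoidin domain receptors Ddr1 and Ddr2, the collagen-binding integrin chains Itga1, Itga2 and Itga11, the laminin-binding integrin chains Itga3, Itga6 and Itga7, and Itgb1, the beta chain that pairs with all 6 of these alpha chains. The rows with these symbols were 9 of the 47069 genes in the count table, and 8 of the 9 had enough reads to be among the 14165 genes tested; Itga2 did not. The genes were chosen from measured values, because Ddr2 had the smallest p-value of all genes tested in this same comparison, at rank 1, and the other 8 were added as its relatives in function. The differences between PSB-KD107 and vehicle are therefore given as a description, with no test of the 9 genes.

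The myoblasts came from mdx mice, which lack dystrophin and model Duchenne muscular dystrophy, and this genotype was shared by both groups. One group received 10 μM PSB-KD107, a synthetic agonist of the G protein-coupled receptor Gpr18, and the other received vehicle (DMSO in aqueous buffer). The sample records give a treatment of 2 days, whereas the study's methods describe an overnight treatment. The sample titles call the cells muscle stem cells and the compound PSB-KD-1, taken here to be the myoblasts and the PSB-KD107 of the methods. The methods describe male mdx mice of the C57BL/10 strain and state an age for the animals treated in vivo, without saying whether the cells came from mice of that age. The methods state that cells of 3 mice were used, without saying which library came from which mouse, and p-values measure only the spread between these 3 libraries per group. Cells had been sorted from muscle with antibodies against the surface proteins Itgb1 and Itga7, leaving out cells stained for Sca-1, CD45, CD31 or CD11b, and the methods describe culture on plates coated with collagen. The presence of Itgb1 and Itga7 in these cells was thus set by the sort and is not a finding. Collagen is a ligand of several of the other receptors. The methods for RNA sequencing do not state whether the sequenced cells grew on such coated plates.

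Discoidin domain receptors are receptor tyrosine kinases that bind fibrillar collagen directly and are activated slowly and for a long time. Integrins are pairs of an alpha and a beta chain that tie the matrix to the actin cytoskeleton through focal adhesions. The alpha chain sets the ligand, so that the chains with an inserted I domain bind collagen and those without it bind laminin here. In skeletal muscle, Itga7 with Itgb1 is the main laminin-binding integrin of the fiber, and Ddr2 is best known from fibroblasts and other mesenchymal cells.

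Reads from related receptors could be assigned to the wrong gene if the genes shared long identical stretches. The longest run of identical bases between the coding sequences of any 2 of the 9 genes was therefore searched in all 36 pairs. It ranged from 10 to 30 bases (median 13), against a read length of 100 bases. The closest pairs by role are printed in the coding strand of GRCm38 (mm10) with GENCODE M21 exons, where capitals mark the identical run and lower case the flanking bases. The Ddr1 stretch lies at chr17:35684229-35684298 in exon 15 of 18, and that of Ddr2 at chr1:169984981-169985050, also in exon 15 of 18, both on the minus strand and within the part that encodes the kinase domain.
Ddr1: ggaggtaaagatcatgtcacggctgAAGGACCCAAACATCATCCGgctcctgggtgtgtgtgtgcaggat
Ddr2: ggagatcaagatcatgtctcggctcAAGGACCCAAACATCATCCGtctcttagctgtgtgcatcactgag
The run of 20 bases was the longest that both discoidin receptors shared. The longest run of all was 30 bases, between Itga1 (chr13:115030076-115030155, minus strand, exon 6 of 29) and Itga11 (chr9:62735277-62735356, plus strand, exon 6 of 30), in the part that encodes the collagen-binding I domain.
Itga1: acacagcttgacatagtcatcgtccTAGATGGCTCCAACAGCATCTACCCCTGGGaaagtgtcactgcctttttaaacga
Itga11: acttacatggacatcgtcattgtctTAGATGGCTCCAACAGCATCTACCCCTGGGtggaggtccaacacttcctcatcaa
Itga3 (chr11:95076199-95076268, minus strand) and Itga6 (chr2:71787180-71787249, plus strand) shared 20 bases in exon 2 of 26 of both, near the start of their coding sequences.
Itga3: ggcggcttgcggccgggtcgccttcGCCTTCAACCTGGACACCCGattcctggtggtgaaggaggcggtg
Itga6: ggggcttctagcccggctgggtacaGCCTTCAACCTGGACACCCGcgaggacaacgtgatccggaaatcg
Over whole transcripts, the share of 50-base words that also occurred in another gene of the annotation was 0% for Itga2, Itga3 and Itgb1, and at most 5.31%, for Itga6. Among the 9 genes, Itga1 and Itga11 were the only pair with such a word in common.

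Some of the genes overlap others in the genome, and the strand setting of the counting is not given in the sources used here. Ddr2 (chromosome 1, 169972307 to 170110762, minus strand) shares 90 exon bases with the antisense gene 3110045C21Rik, which had between 11 and 56 counts per library, where Ddr2 had between 1389 and 5321. Ddr1 (chromosome 17, 35681567 to 35704621, minus strand) shares 216 exon bases with the antisense gene Gm4577, which had between 1 and 6 counts. Itga1 (chromosome 13, 114953096 to 115101964, minus strand) shares 685 exon bases with Gm49395, a gene on the same strand for which the count table has no entry. Itga7 (chromosome 10, 128933818 to 128958282, plus strand) shares 9 exon bases with Mettl7b, at 0 to 4 counts. Itga2, Itga3, Itga6, Itga11 and Itgb1 share no exon base with another gene.

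The libraries held between 30917613 and 48756794 counts, and 3 counts, taken here as the floor of detection, were worth 0.0596 to 0.0962 CPM (counts per 1000000 of the TMM-normalized library total); floors cover counting error only. The numbers of the libraries in the count table are 1, 2 and 4 in each group. PSB-KD107 library 4 stood apart from the rest: 485 genes were at least 2-fold above, and 268 at least 2-fold below, all 5 other libraries, whereas the next highest numbers were 153 above for vehicle library 1 and 136 below for vehicle library 4. Differences of the receptors that turned on PSB-KD107 library 4, and counts of the lists that changed direction, are therefore also given without it. Markers of myogenic cells and the antigens sorted against were looked up, without deciding between the muscle stem cells of the titles and the myoblasts of the methods. Desmin (Des) was at 2784 to 3932 CPM, Myog at 1175 to 2203, Myod1 at 399 to 1060 and Pax7 at 26.8 to 68.8 over the 6 libraries, while Myf5 ranged from 3.57 to 40.9 CPM. Of the antigens sorted against, the genes for CD45 (Ptprc) and CD31 (Pecam1) reached at most 0.0321 and 0.357 CPM. The gene for Sca-1 (Ly6a) was at 0.155 to 1.29 CPM in 5 libraries and at 8.36 CPM in PSB-KD107 library 4, and Itgam, the gene for CD11b, was at 0.385 to 4.24 CPM.

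Levels were compared between genes per length, as RPKM (CPM per kb of summed exon length), in the vehicle libraries. Itgb1 was the most abundant of the 9 genes at 167 ± 17.2 RPKM (SD, n = 3), followed by Itga7 at 129 ± 10.2 and Ddr1 at 110 ± 29.9 RPKM. These 3 levels were above those of 97.3% or more of the genes tested, and the ranges of Itga7 and Ddr1 overlapped. Itga6 (27.0 ± 0.714 RPKM) and Itga3 (18.8 ± 4.31 RPKM) formed a middle group whose ranges did not overlap with each other or with Ddr1. Ddr2, at 4.49 ± 0.205 RPKM, stood near the middle of all genes tested, above 49.6% of them. The collagen-binding alpha chains were the lowest, with 0.240 ± 0.166 RPKM for Itga1, 0.104 ± 0.0933 for Itga11 and 0.0106 ± 0.00251 for Itga2, and the ranges of Itga1 and Itga11 overlapped. Vehicle-treated mdx myoblasts thus held RNA for laminin-binding alpha chains and for Ddr1 at far higher levels than for the collagen-binding alpha chains among the 9 genes. With PSB-KD107 the order of the means was the same. Ddr2 (12.4 ± 1.23 RPKM) then lay within the range of Itga3, from 4.02 to 30.9 RPKM. This overlap came from PSB-KD107 library 4, where Itga3 was at 4.02 RPKM and Ddr2 at 13.8 RPKM. In PSB-KD107 libraries 1 and 2 Ddr2 stayed below Itga3, which was at 14.9 and 30.9 RPKM. The vehicle levels of Ddr2, from 4.26 to 4.65 RPKM, also lay within the PSB-KD107 range of Itga3. Without correction for length, Itga7 ranked above Itgb1 in vehicle (1041 against 682 CPM), and the other 7 genes kept their rank.

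**Figure D1:**
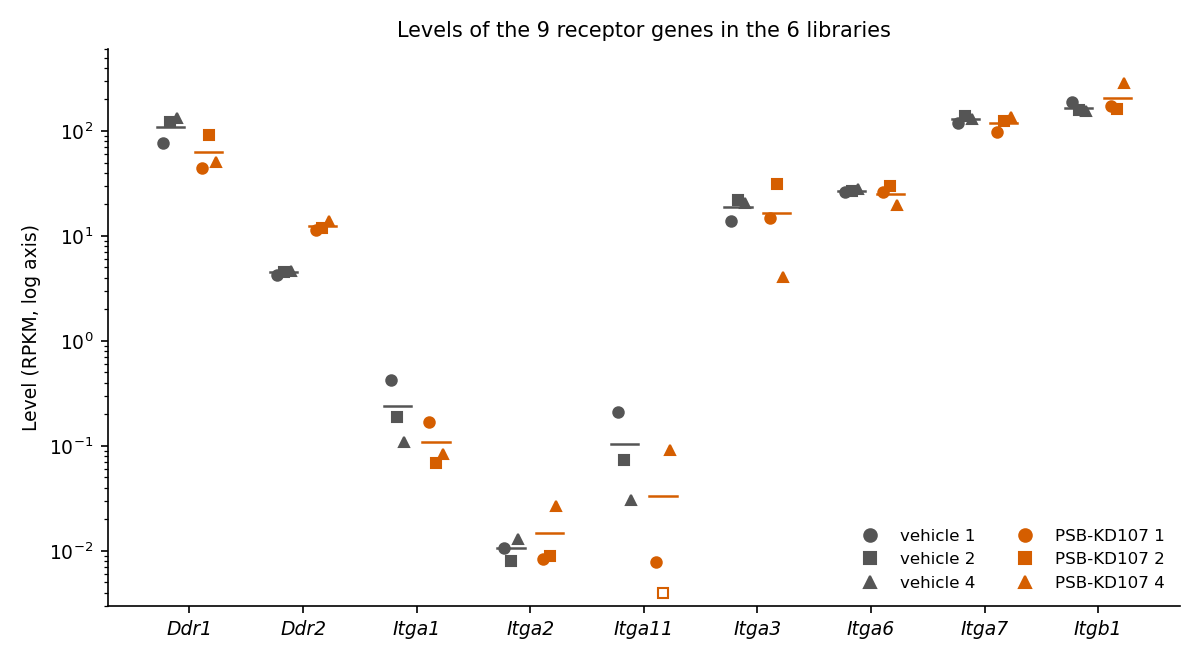
Level of each of the 9 receptor genes in RPKM (log axis) in 3 vehicle libraries (grey) and 3 PSB-KD107 libraries (orange). Each point is a library, marked by its number, and lines are group means. The open square stands for a library with 0 counts of Itga11, drawn at the lower edge. The Ddr2 points of the groups lie apart, from 4.26 to 4.65 RPKM in vehicle and from 11.4 to 13.8 RPKM with PSB-KD107, while those of the other genes overlap between the groups.

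Ddr2, the discoidin receptor for fibrillar collagens, was at 39.4, 42.2 and 43.1 CPM in vehicle libraries 1, 2 and 4, and at 106, 111 and 128 CPM in PSB-KD107 libraries 1, 2 and 4. All 3 PSB-KD107 libraries lay above all 3 vehicle libraries, and within a group the libraries were close to each other, with an SD of 4.57% of the mean in vehicle and 9.94% with PSB-KD107. The mean was 41.6 ± 1.90 CPM in vehicle and 115 ± 11.4 CPM with PSB-KD107 (SD, n = 3), a 2.76-fold higher level (log2 fold change 1.47, SE 0.11). This value chose the gene, so that its size and rank are no independent evidence. When the libraries were left out 1 at a time, the log2 fold change of Ddr2 was between 1.38 and 1.51, the lowest being that without PSB-KD107 library 4, and these are the same libraries that chose the gene.

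Ddr1, the discoidin receptor best known from epithelial cells, was at 363, 577 and 633 CPM in vehicle libraries 1, 2 and 4 and at 213, 437 and 244 CPM in the PSB-KD107 libraries. Its groups overlapped, since PSB-KD107 library 2 lay above vehicle library 1. The mean was 525 ± 143 CPM in vehicle and 298 ± 121 CPM with PSB-KD107 (log2 fold change -0.82, SE 0.34). Each PSB-KD107 library was lower than the vehicle library of the same number, by between 0.40 and 1.38 on the log2 scale, although the numbers are not known to pair the libraries. Without PSB-KD107 library 4 the log2 fold change of Ddr1 was -0.69.

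Ddr2 was thus a small part of the discoidin receptor RNA in vehicle and a larger one with PSB-KD107. Per length, it made up 5.30%, 3.63% and 3.39% of the sum of Ddr1 and Ddr2 in the vehicle libraries and 20.4%, 11.6% and 21.2% in the PSB-KD107 libraries. The lowest PSB-KD107 library was above the highest vehicle library. This share is built from the Ddr2 level that chose the gene, so that it is no separate evidence. Ddr1 nevertheless remained the more abundant of the pair in each library, by 24.3 ± 5.67 times in vehicle and 5.09 ± 2.21 times with PSB-KD107 (SD, n = 3). The sum of both was 114 ± 30.1 RPKM in vehicle and 74.8 ± 25.2 RPKM with PSB-KD107, and its ranges overlapped.

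**Figure D2:**
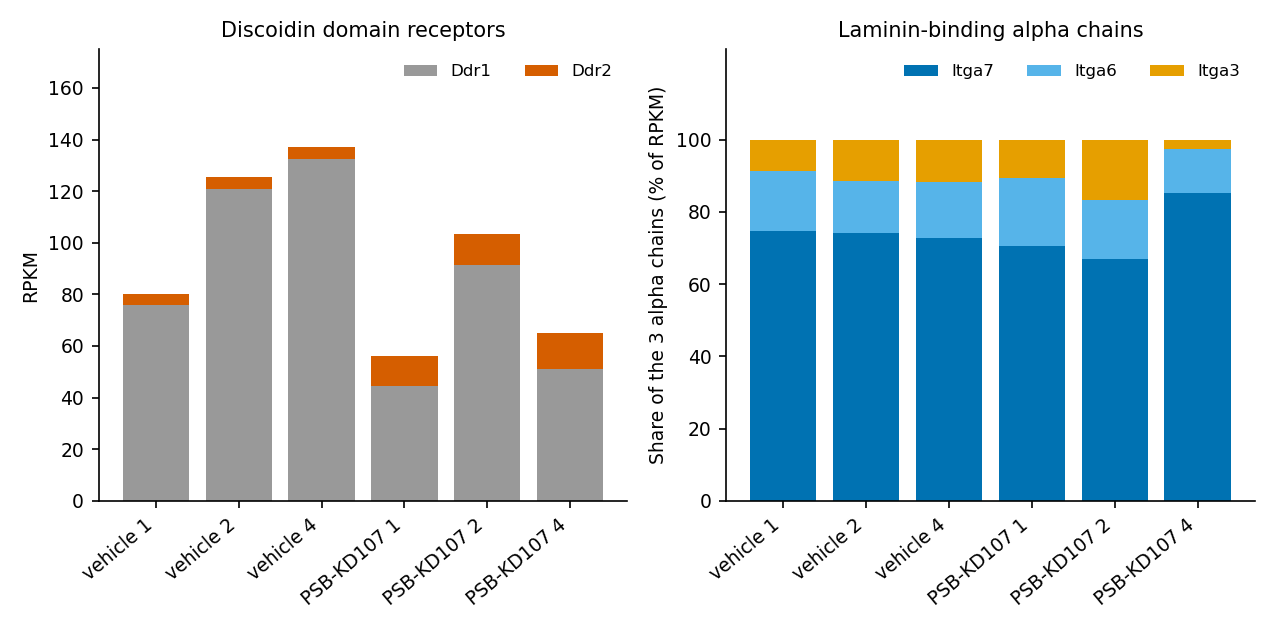
Make-up of 2 receptor groups in each of the 6 libraries. Left, stacked RPKM of Ddr1 (grey) and Ddr2 (orange), where the orange part is 3.39% to 5.30% of a bar in vehicle and 11.6% to 21.2% with PSB-KD107. Right, share of Itga7, Itga6 and Itga3 in their summed RPKM in percent, where Itga3 is at 2.53% in PSB-KD107 library 4.

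The collagen-binding alpha chains were the least abundant of the 9 genes, and Itga2 and Itga11 were at or close to the floor in several libraries. Itga1, a collagen receptor of mesenchymal cells that also binds basement membrane collagen, had 311, 121 and 65 counts with vehicle, and 159, 40 and 57 with PSB-KD107. These were 7.93, 3.47 and 2.02 CPM in vehicle and 3.16, 1.28 and 1.57 CPM with PSB-KD107. Vehicle library 1 was the highest, PSB-KD107 library 1 lay within the vehicle range, and the groups overlapped. The log2 fold change of Itga1 was -1.15 (SE 0.61), and -0.45 without vehicle library 1. Itga11, a receptor for fibrillar collagen, had 42, 13 and 5 counts in vehicle and 2, 0 and 17 counts with PSB-KD107, so that the groups overlapped and no fold is given. Itga2, the collagen receptor of platelets and epithelia, had 3, 2 and 3 counts in vehicle and 3, 2 and 7 counts with PSB-KD107, at or near the floor, and was not tested. Together, Itga1, Itga2 and Itga11 made up 0.0855% to 0.405% of the RPKM of the 6 alpha chains in vehicle and 0.0420% to 0.133% with PSB-KD107. This share leaves out Itga10, a collagen-binding chain that is not among the 9 genes. Its mean was higher than that of Itga1, at 1.22 RPKM in vehicle and 0.916 RPKM with PSB-KD107. In bulk RNA of this kind, fewer cells of a type and less RNA per cell cannot be told apart.

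The laminin-binding alpha chains were led by Itga7, the alpha chain of the main laminin-binding integrin of muscle. It was at 959, 1123 and 1041 CPM in vehicle and at 799, 1006 and 1094 CPM with PSB-KD107, and the groups overlapped (log2 fold change -0.11, SE 0.15). Itga6, which marks many stem and progenitor cells, was at 238, 241 and 250 CPM in vehicle, the narrowest spread of the 9 genes at an SD of 2.65% of the mean. With PSB-KD107 it was at 236, 272 and 177 CPM, with library 2 above and libraries 1 and 4 below the vehicle range (log2 fold change -0.09, SE 0.16). Itga3, a receptor for the laminins of basement membranes, was at 79.0, 124 and 119 CPM in vehicle and at 85.1, 177 and 22.9 CPM with PSB-KD107. PSB-KD107 libraries 2 and 4 were the highest and the lowest of all 6, 7.70 times apart. Its log2 fold change was -0.18 (SE 0.66) with all libraries, -0.99 without PSB-KD107 library 2 and 0.29 without PSB-KD107 library 4, and that of Itga6 likewise turned from -0.09 to 0.06.

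The share of each laminin-binding chain in the sum of the 3 was steady in vehicle. Itga7 made up 73.8 ± 1.06% of their RPKM, Itga6 15.5 ± 1.19% and Itga3 10.7 ± 1.70% (SD, n = 3). With PSB-KD107 the means were close to these, at 74.3 ± 9.55%, 15.8 ± 3.19% and 9.96 ± 7.11%, but the spread between libraries was larger. In PSB-KD107 library 4 the share of Itga7 was 85.1% and that of Itga3 2.53%, both outside the range of the other 5 libraries. Over all 18 alpha chains of the integrin family, Itga7 was the largest single part in RPKM, from 55.5% to 65.3% of their sum.

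Itgb1, the shared beta chain, was at 762, 651 and 633 CPM in vehicle and at 703, 661 and 1157 CPM with PSB-KD107. PSB-KD107 library 4 was the highest of all 6, and the other PSB-KD107 libraries lay within the vehicle range. The mean was 682 ± 70.0 CPM in vehicle and 841 ± 275 CPM with PSB-KD107 (log2 fold change 0.30, SE 0.24), and without PSB-KD107 library 4 the log2 fold change was -7.76e-05. The whole difference of the Itgb1 means was thus carried by this library. Of the 8 beta chains of the family, Itgb1 made up 82.0% to 85.0% of the RPKM in each library. The 6 alpha chains summed to 0.853, 1.18 and 1.14 times the RPKM of Itgb1 in vehicle and to 0.812, 1.14 and 0.561 times with PSB-KD107, the last being the library with the highest Itgb1 and the lowest Itga3.

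**Figure D3:**
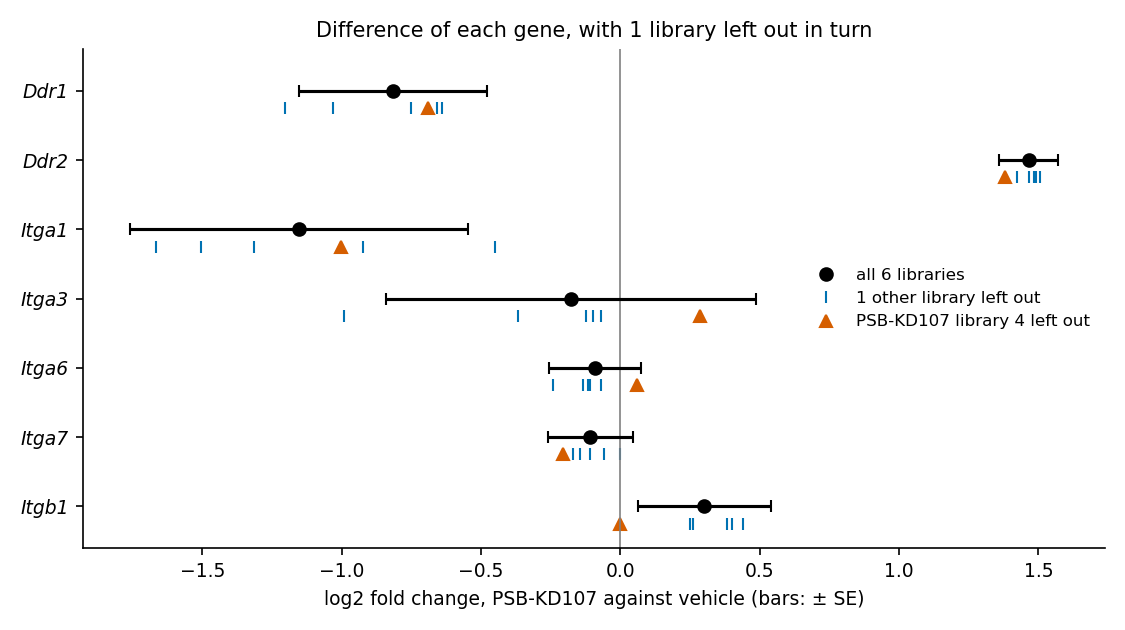
log2 fold change between PSB-KD107 and vehicle for the 7 genes with enough counts for a fold. Black points with bars are the fit on all 6 libraries with its SE, blue ticks the fits with 1 other library left out, and orange triangles the fit without PSB-KD107 library 4. Ddr2 stays between 1.38 and 1.51, whereas Itga3, Itga6 and Itgb1 reach or cross 0 without PSB-KD107 library 4.

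Of the 8 genes tested, 2 were higher with PSB-KD107 (Ddr2 and Itgb1) and 6 lower. Their log2 fold changes had a median of -0.14, against 7066 higher and 7099 lower genes and a median of -0.00074 over all genes tested. Without PSB-KD107 library 4, 3 were higher and 5 lower. By the quasi-likelihood test of edgeR with adjustment by Benjamini-Hochberg, 0 of the 14165 genes (0%) and 0 of the 8 had an adjusted p-value under 0.05. At an unadjusted p-value under 0.05, 1 of the 8 was higher (Ddr2), where 6.47% of all genes were, and 0 were lower, where 2.93% of all genes were. DESeq2 called 1 of the 8 higher (Ddr2) and 0 lower, against 2.26% and 0.719% of the 13761 genes to which it gave an adjusted p-value. The groups did not overlap for 1 gene of the 8, Ddr2, which was higher, and for 0 lower genes. Over all genes tested, 9.2% were higher and 6.59% lower without overlap. These counts are in the comparison that chose Ddr2, and nothing is read from them.

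The genes whose profile over the 6 libraries was most like that of Ddr2 were found by the root mean square difference of log2 CPM, centred on each gene's mean. They were Mylk2 (0.129), Atf5 (0.156), Cpt1b (0.161), 2700033N17Rik (0.190) and Aldh18a1 (0.191), where the median over all genes tested was 0.788. Mylk2 encodes the myosin light chain kinase of skeletal muscle, Atf5 a stress-responsive transcription factor, Cpt1b the muscle carnitine palmitoyltransferase and Aldh18a1 an enzyme of proline synthesis. Their mean levels were 8.09, 61.2, 0.736, 0.206 and 38.1 CPM in vehicle and 21.1, 187, 2.36, 0.594 and 92.3 CPM with PSB-KD107. None of the 5 is a matrix receptor. Their log2 fold changes were between 1.27 and 1.68. The profile of Ddr2 holds the group difference that chose it, so that this likeness is no separate evidence. The most similar genes for the other receptors were Cplx3 for Ddr1 (0.0584), Lrrc4 for Itga1 (0.151), Ptprt for Itga3 (0.174), Cep164 for Itga6 (0.0264), 4930589O11Rik for Itga7 (0.0407), Mfap2 for Itga11 (0.261) and Ptprs for Itgb1 (0.0261).

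The other integrin chains showed no common direction. Of 19 listed, 13 were tested, and 6 were higher and 7 lower with PSB-KD107, where log2 fold changes had a median of -0.05. Without PSB-KD107 library 4 there were 8 higher and 5 lower (median 0.05), and without vehicle library 1 there were 10 higher and 3 lower (0.37). None passed: edgeR gave 0 adjusted and 0 unadjusted p-values under 0.05, and DESeq2 called 0. The remaining collagen-binding chain, Itga10, was at 5.99 to 6.73 CPM in vehicle and at 4.89, 7.99 and 1.38 CPM with PSB-KD107 (log2 fold change -0.42, SE 0.58). Itgb4, which joins Itga6 in hemidesmosomes, was at 27.5, 13.5 and 9.77 CPM in vehicle and at 38.7, 20.8 and 11.8 CPM with PSB-KD107 (0.49). The smallest p-values belonged to the higher chains Itgb5 (0.48, SE 0.25) and Itgb8 (0.48, SE 0.25) and to the lower Itgam (-1.05, SE 0.70), all with an edgeR adjusted p-value of 0.62 or more. Of 13 other matrix receptors tested, 6 were higher and 7 lower (median -0.01). In that list edgeR likewise gave 0 adjusted and 0 unadjusted p-values under 0.05, with 0 calls by DESeq2. Named by the smallest p-values in each direction, Cd47 (log2 fold change 0.38) and Cd44 (0.22) were higher in the mean and Rpsa (-0.12) and Bcam (-0.49) lower. The groups did not overlap for 1 of these 13 genes, which was higher, where 9.2% of all genes tested were higher without overlap. That gene was the tetraspanin Cd151 (0.11, SE 0.08), named after its values were seen.

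Among the ligands, the collagen genes were mostly lower. Of 23 listed, 18 were tested, of which 15 were lower and 3 higher. The median of their log2 fold changes was -0.52, and without PSB-KD107 library 4 all 18 were lower, whereas without vehicle library 1 there were 11 lower and 7 higher. With edgeR 0 had an adjusted p-value under 0.05. At an unadjusted p-value under 0.05, 2 of the 18 were lower, where 2.93% of all genes were. DESeq2 called 1 lower, against 0.719% of the genes to which it gave an adjusted p-value. That gene was Col1a2, a chain of type I collagen, which is 1 of the fibrillar collagens. Col1a1, the other chain of type I collagen, was not tested. The fibrillar chain Col3a1 was at a mean of 233 CPM in vehicle (log2 fold change -0.54, SE 0.69), and its groups overlapped. Col1a1 and Col3a1 were named after their values were seen. Col1a2 was low throughout, at 3.98, 3.87 and 4.09 CPM in vehicle and at 2.21, 1.80 and 1.84 CPM with PSB-KD107. Its groups did not overlap (log2 fold change -1.03, SE 0.22), with an adjusted p-value of 0.00127 in DESeq2 and 0.243 in edgeR. Col6a1, a chain of the microfibrillar type VI collagen, was at 151, 71.1 and 76.4 CPM in vehicle and at 24.4, 20.6 and 69.8 CPM with PSB-KD107 (log2 fold change -1.38, SE 0.56, edgeR adjusted p-value 0.523). The higher genes were led by Col4a5 and Col6a3, whose higher means came from PSB-KD107 library 4, at 27.8 and 8.47 CPM, where the other PSB-KD107 libraries were at or below 2.33 CPM.

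Of the laminin and basement membrane genes, 13 of 15 were tested, of which 8 were higher and 5 lower (median 0.19 on the log2 scale). These became 4 higher and 9 lower without PSB-KD107 library 4. By edgeR, 1 was higher at an unadjusted p-value under 0.05, where 6.47% of all genes were, 0 passed after adjustment, and DESeq2 called 0. The gene was Lama5, the laminin alpha 5 chain, at 75.0, 60.1 and 58.1 CPM in vehicle and at 106, 70.8 and 115 CPM with PSB-KD107 (log2 fold change 0.60, SE 0.21). Lamc1, a shared gamma chain, followed at 0.46, and the lower genes were led by Lama4 (-1.15, SE 0.76) and Nid2 (-0.15).

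Downstream of the integrins, 34 of 36 listed genes for integrin activators and focal adhesion proteins were tested, of which 20 were higher and 14 lower (median 0.10), or 13 higher and 21 lower without PSB-KD107 library 4. By edgeR, 0 had an adjusted p-value under 0.05. At an unadjusted p-value under 0.05, 4 were higher and 1 lower, where 6.47% and 2.93% of all genes were. DESeq2 called 2 higher, against 2.26% of the genes to which it gave an adjusted p-value. Tns2, a tensin that binds the tail of beta chains, was at 22.4, 22.6 and 20.8 CPM in vehicle and at 37.4, 46.1 and 54.0 CPM with PSB-KD107, without overlap (log2 fold change 1.06, SE 0.16). Its adjusted p-value was 2.77e-05 in DESeq2 and 0.184 in edgeR. Parvb, a partner of integrin-linked kinase, was higher without overlap at 0.83 (SE 0.23), and the scaffold proteins Pxn (-0.39, SE 0.15) and Zyx (-0.83, SE 0.45) were lower without overlap.

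Of 22 genes listed for discoidin receptor signaling and its matrix targets, 20 were tested, with 11 higher and 9 lower and a median log2 fold change of 0.02, or 9 higher and 11 lower (-0.10) without PSB-KD107 library 4. No gene of this list passed, with 0 adjusted and 0 unadjusted p-values under 0.05 in edgeR and 0 calls in DESeq2. The smallest p-values were those of the adaptor Shc1 (0.30, SE 0.16) and the collagen cross-linking enzyme Lox (2.23, SE 1.23) among the higher genes. Among the lower ones they were those of Notch1 (-1.01, SE 0.45) and Pdgfc (-0.54, SE 0.29). Lox was at 68.8 CPM in PSB-KD107 library 4 and at 2.76 to 10.1 CPM in the other 5 libraries.

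**Figure D4:**
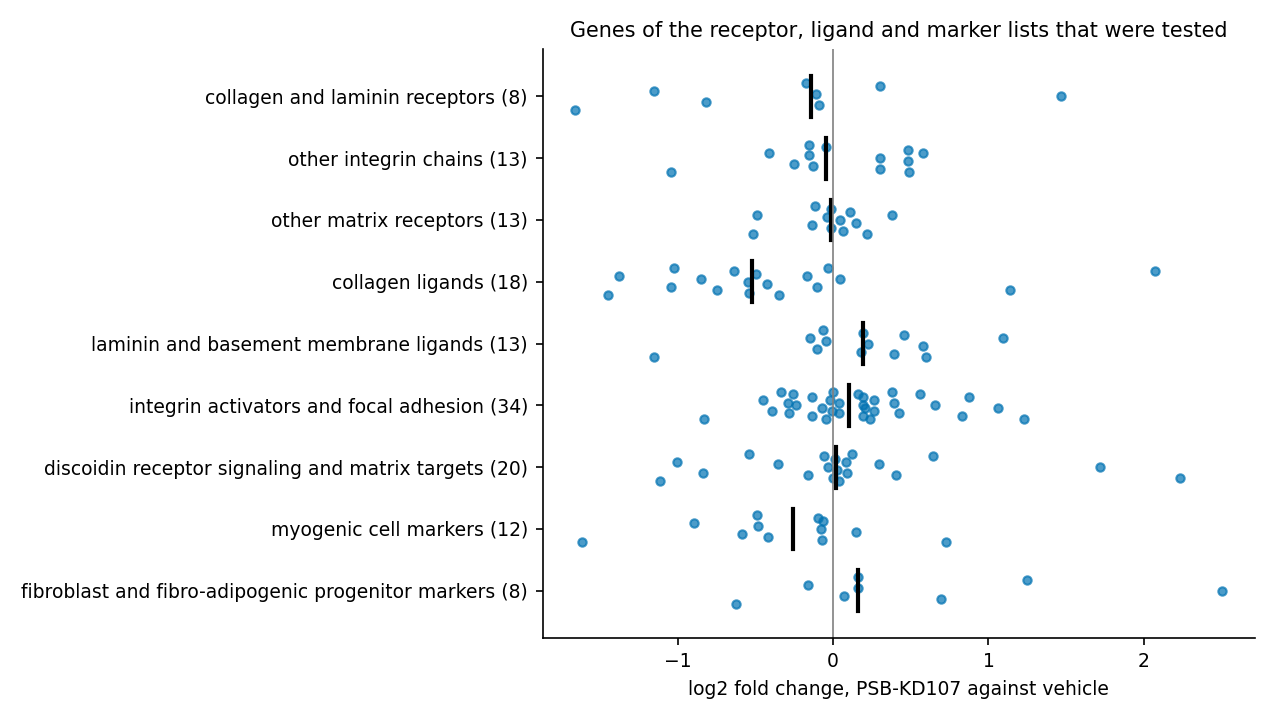
log2 fold change between PSB-KD107 and vehicle of each gene tested in 9 lists, with the number of genes tested in parentheses. Each point is a gene and each black bar the median of its list. The medians run from -0.52 for collagen ligands to 0.19 for laminin and basement membrane ligands, and the point of Itga11 in the uppermost list rests on 0 to 42 counts per library.

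Ddr2 is abundant in fibroblasts, and markers of other cell types were therefore set beside it. Of 15 fibroblast and fibro-adipogenic progenitor markers, 8 were tested, with 6 higher and 2 lower (median 0.16). The median was 0.55 without PSB-KD107 library 4, where 9 were tested and 1 was higher at an unadjusted p-value under 0.05. It was 0.46 without vehicle library 1 and 0.0062 without PSB-KD107 library 1, where 4 were higher and 4 lower. With all 6 libraries there were 0 adjusted and 0 unadjusted edgeR p-values under 0.05 among them and 0 DESeq2 calls. Their summed level was 343 to 385 CPM in vehicle and 301 to 394 CPM with PSB-KD107, most of it from Gsn and Tcf4, which myogenic cells also express. The defining marker Pdgfra was at 0.713 to 1.17 CPM in vehicle and at 0.609 to 1.46 CPM with PSB-KD107, Dcn was at or below 1.25 CPM in each library, and Lum had 0 counts in all 6. The groups overlapped for each of the 8 markers tested. The part of these cells in the difference of Ddr2 was not tested. Ly6a (log2 fold change 2.51, SE 1.27) and Osr1 (1.25, SE 1.02) were higher and Tcf4 (-0.16) and Postn (-0.62, SE 0.70) lower by the smallest p-values of the list.

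Endothelial markers summed to 1.69 to 6.33 CPM in vehicle and 2.63 to 9.32 CPM with PSB-KD107, with 2 of 8 tested, Vwf (log2 fold change 0.85, SE 0.83) and Cdh5 (-0.09). Leukocyte markers summed to 1.71 to 2.43 CPM in vehicle and 2.42 to 5.37 CPM with PSB-KD107, with 2 of 10 tested, Cd68 (1.82, SE 0.94) and Mrc1 (0.05). Markers of pericytes, smooth muscle and Schwann cells summed to 2113 to 3186 CPM in vehicle and 1290 to 3991 CPM with PSB-KD107, nearly all of it Acta2 (0.07, SE 0.44), which myoblasts express too. In that list 5 of 10 were tested, of which 2 were higher, Acta2 and Rgs5 (0.34), and 3 lower, among them Abcc9 (-0.39), or 0 higher and 5 lower without PSB-KD107 library 4. In each of these lists edgeR gave 0 adjusted and 0 unadjusted p-values under 0.05, and DESeq2 called 0.

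Myogenic markers were mostly lower with PSB-KD107, where 7099 of all 14165 genes tested were lower. All 12 were tested, of which 10 were lower and 2 higher (median log2 fold change -0.26), or 8 lower and 4 higher without PSB-KD107 library 4. With edgeR 0 had an adjusted p-value under 0.05. At an unadjusted p-value under 0.05, 3 of the 12 were lower, where 2.93% of all genes were. DESeq2 called 2 lower, against 0.719% of the genes to which it gave an adjusted p-value. Those were Pax7, the transcription factor of muscle stem cells (log2 fold change -0.90, SE 0.17, DESeq2 adjusted p-value 0.0018, edgeR 0.209), and the Notch target Heyl (-1.62, SE 0.43, DESeq2 adjusted p-value 0.0104, edgeR 0.34). The groups did not overlap for either gene, and the remaining gene of the 3, Myog, was at 2042 to 2203 CPM in vehicle and at 1175 to 1726 CPM with PSB-KD107. The higher markers were Des (0.15, SE 0.18) and Myf5 (0.73, SE 0.92). The part of the myogenic markers in the difference of Ddr2 was not tested.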

How the data were processed

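Polyadenylated RNA of vehicle- and PSB-KD107-treated mdx myoblasts was sequenced by the authors in paired-end mode, with 3 libraries per group. Alignment was done with STAR, and the submitters' processing notes name the build mm10. The authors deposited raw counts per gene, with no normalization; the counting program, annotation and strand setting are not given in the sources used here. Of the libraries, those numbered 1 and 2 matched a sample record, and those numbered 4 were assigned to their group only.

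Gene models were taken from GENCODE M21 (GRCm38), which had an entry for 46574 of the 47069 genes. Counts were filtered with filterByExpr, scaled by TMM and compared with edgeR 4.0.16's quasi-likelihood test in R 4.3.3, with Benjamini-Hochberg adjustment and a threshold of 0.05. DESeq2 1.42.0, limma-voom (limma 3.58.1), RLE scaling, no filter, a mean FPKM of at least 1, a replicate block and each library left out were alternatives. Log2 fold changes are those of edgeR throughout, with the SE derived from the quasi-likelihood F statistic. Profiles and differences between same-numbered libraries used log2 CPM with an offset of 0.1. Where a symbol occurred more than once, the entry with the most counts was used. Totals of 30917613 to 48756794 counts per library set the floor of 3 counts. Scripts were tested on simulated data. Figures were drawn in Python 3.11.15.

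The genes named were the 9 receptors, Itga10, Itgb4, defining cell type markers, the up to 2 higher and 2 lower genes with the smallest edgeR p-value in each list, and those with the most similar profiles (5 for Ddr2, 1 for the others). The 9 genes and all lists were chosen with earlier results of these data known. Some genes covered by this rule are not reported here.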

Additional observations from a re-analysis of the deposited data

How the results depend on the processing

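The log2 fold change of Ddr2 was between 1.38 and 1.51 under all 14 alternatives tried, and those of Ddr1 (-1.20 to -0.53) and Itga7 (-0.21 to -0.0023) kept their sign, as did that of Itga1 (-1.66 to -0.45) under the 13 that tested it. The sign of Itga3, Itga6 and Itgb1 changed under 3 of 14 alternatives each, those without PSB-KD107 library 4. The number of genes with an edgeR adjusted p-value under 0.05 was 0 with all 6 libraries, and 0 with RLE scaling, a mean FPKM of at least 1, limma-voom and each library left out. It was 8 with no filter on low counts and 410 with DESeq2; the cause was not tested. Ddr2 was the 1 receptor among them in both. With a replicate block on the 4 libraries numbered 1 and 2 it was 2456, against 0 on these libraries without the block (an alternative chosen after seeing the data) and 0 with a replicate block by number on all 6. The 2456 genes, 17.1% of those tested, included 4 receptors (Ddr1, Ddr2, Itga1 and Itga11). The log2 fold change of Ddr2 was 1.41 and 1.46 with these blocks. Deviations from the group means correlated across genes at 0.63 and 0.52 for the libraries numbered 1 and 2 but at -0.13 for those numbered 4, and at 0.64 for vehicle 4 and PSB-KD107 2, so that the numbers were not taken to pair the libraries. Median log2 fold changes turned sign for lists near 0, such as other integrin chains (-0.12 to 0.37). Those of endothelial markers (0.38 with all 6 libraries, -0.36 to 1.13) and leukocyte markers (0.94, -0.14 to 2.03) also turned sign. Depth limits Itga2 and Itga11, which had at most 7 and 42 counts.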
